A study of Mus musculus with 5 samples.

Results

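The Dlx and Msx genes encode homeodomain transcription factors, and their occupancy by CBX2 was followed in mouse embryonic fibroblasts (MEFs). The members were the 6 Dlx genes (Dlx1 to Dlx6) and the 2 Msx genes Msx1 and Msx2, chosen by name, which makes 8 of the 22367 protein-coding gene records of the annotation. A member was counted as having a CBX2 peak when a peak overlapped its gene body extended by 5 kb on each side, called its window here. On that rule Dlx6 had a peak in all 3 peak lists, Msx1 in the Control and K27M lists, Dlx4 and Dlx5 in the K27M list alone, and Dlx1, Dlx2, Dlx3 and Msx2 in none.

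CBX2 is a subunit of Polycomb Repressive Complex 1 (PRC1) that reads trimethylated lysine 27 of histone H3 (H3K27me3), the mark deposited by Polycomb Repressive Complex 2 (PRC2). The study mapped CBX2 by ChIP-Seq on micrococcal nuclease-digested chromatin to ask whether PRC1 sites move when PRC2 is inhibited. It reported that EZHIP or H3.3 K27M left the number of CBX2 sites and their general distribution unchanged, a statement about the genome as a whole. All cells came from 1 line of MEFs whose EED gene, which encodes a core PRC2 subunit, carried loxP sites. Control was the parental EED floxed line, EZHIP cells expressed the human ependymoma protein EZHIP from a stably integrated lentivirus, and K27M cells overexpressed the histone mutant H3.3 K27M in the same way. Per the methods the lentiviral vector used an EF1a promoter and a puromycin marker while the label of the Control library names no vector. Both EZHIP and H3.3 K27M inhibit PRC2, and the floxed but undeleted EED alleles were shared by the 3 groups. Each group was 1 library, so no difference between lists has a replicate check and no p-value is given. The libraries K27R and EEDnull were not used here.

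Dlx genes pattern the jaw, the limb, the teeth and the inner ear, and drive the specification and migration of inhibitory interneurons of the forebrain. They lie in pairs on the chromosome, and the partners share enhancers that sit largely in the stretch between them. Msx1 and Msx2 are targets of BMP signalling that act as repressors in the tooth, the limb, the skull and the neural crest. In fibroblasts, developmental regulators that the cell does not use are typical sites of Polycomb repression. No expression values belonged to the lists, so the labelled cell type could not be checked against its markers.

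The gene models placed the partners of each pair with their 3′ ends facing each other, that is, convergent, with the starts at the outer ends. On NCBIM37, the assembly of mm9, Dlx1 lay at chr2:71366170-71372038 on the plus strand and Dlx2 at chr2:71381466-71384811 on the minus strand, 9427 bp apart. Dlx3 lay at chr11:94981403-94986610 on the plus strand and Dlx4 at chr11:95001770-95007577 on the minus strand, with a gap of 15159 bp. Dlx6 lay at chr6:6813334-6818568 on the plus strand and Dlx5 at chr6:6827805-6832085 on the minus strand, with a gap of 9236 bp. No protein-coding gene lay inside any of these gaps. Msx1 (chr5:38211724-38215822) and Msx2 (chr13:53562250-53568443) stood alone, both on the minus strand.

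PRC1 and PRC2 are known to gather at CpG islands, so CpG-rich stretches of the members are shown. Such stretches did not set the members with a peak apart. With UTR sequence not excluded, 200-bp bins outside every peak held 28 CpG at Dlx3 and 26 at Dlx1. The first set holds, for each member whose own start lay in a peak, the 200-bp bin with the most CpG among the bins that were inside every peak of that member and free of UTR sequence. Capitals mark CpG dinucleotides, and the plus strand of NCBIM37 is shown. The Dlx6 bin (chr6:6813801-6814000) held 25 CpG at a G+C content of 79.0%, began 467 bp into the gene, overlapped an exon of Dlx6 and an intron of Dlx6os1, and lay in the peaks of all 3 lists. The Msx1 bin (chr5:38215001-38215200) held 19 CpG at 69.5% G+C, overlapped an exon of Msx1 and lay in the Control and K27M peaks. The Dlx4 bin (chr11:95006401-95006600) held 13 CpG at 58.5% G+C, overlapped an exon of Dlx4 and an exon of the lincRNA A730090H04Rik, and lay in the K27M peak alone.
Dlx6 bin: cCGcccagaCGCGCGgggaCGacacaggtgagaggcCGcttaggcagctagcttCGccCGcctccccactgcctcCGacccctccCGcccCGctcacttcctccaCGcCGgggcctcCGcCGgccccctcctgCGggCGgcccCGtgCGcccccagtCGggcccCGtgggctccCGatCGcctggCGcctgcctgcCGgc
Msx1 bin: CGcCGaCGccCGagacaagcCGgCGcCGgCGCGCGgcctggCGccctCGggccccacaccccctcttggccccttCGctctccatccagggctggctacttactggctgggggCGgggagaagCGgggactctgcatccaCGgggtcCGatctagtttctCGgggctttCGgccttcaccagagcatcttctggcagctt
Dlx4 bin: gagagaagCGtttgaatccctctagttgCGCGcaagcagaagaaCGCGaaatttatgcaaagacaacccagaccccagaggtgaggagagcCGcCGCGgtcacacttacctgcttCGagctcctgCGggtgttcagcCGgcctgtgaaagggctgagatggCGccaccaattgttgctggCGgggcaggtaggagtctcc

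The second set is the 250 bp upstream of the start of 2 members, on the strand of the gene, and is shown because both stretches were rich in CpG while the peaks differed. Dlx2 (chr2:71384812-71385061, minus strand) had 24 CpG and lay in a peak of no list. Msx1 (chr5:38215823-38216072, minus strand) had 21 CpG and lay in the Control and K27M peaks.
Dlx2 upstream: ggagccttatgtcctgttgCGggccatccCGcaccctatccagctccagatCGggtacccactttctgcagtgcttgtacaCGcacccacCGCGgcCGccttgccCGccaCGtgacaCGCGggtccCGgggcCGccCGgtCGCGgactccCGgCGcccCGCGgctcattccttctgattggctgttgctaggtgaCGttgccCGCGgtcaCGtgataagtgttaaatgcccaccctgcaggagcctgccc
Msx1 upstream: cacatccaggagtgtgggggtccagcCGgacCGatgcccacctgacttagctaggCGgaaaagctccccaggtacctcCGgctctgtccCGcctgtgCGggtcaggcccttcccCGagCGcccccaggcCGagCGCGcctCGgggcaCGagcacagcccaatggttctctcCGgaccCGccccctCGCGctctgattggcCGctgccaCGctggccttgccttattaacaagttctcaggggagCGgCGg

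Across all 22362 genes with 250 bp upstream, the median was 8 CpG. Dlx2 exceeded 86.5% of genes and Msx1 exceeded 81.0%. The counts of the other members are not given here, so no relation between upstream CpG and peaks is drawn from this pair. The letters TAATTA, the core of the sequence bound by Dlx and Msx homeodomains, read the same on both strands and were found in neither of the upstream sequences shown, against 1027 of all genes or 4.59%.

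The 3 lists differed in size, which bears on every count that follows. The Control list held 289 peaks with a median width of 7400 bp, the EZHIP list 255 peaks at 6800 bp and the K27M list 327 peaks at 9600 bp. In the same order they covered 3.27, 2.76 and 4.47 Mb of the genome. The narrowest peak was 1200 bp in Control and 2200 bp in both EZHIP and K27M, so the lists did not start from the same width. The number of reads behind each list is unknown, and the lists carry no peak height, so a missing peak means only that no region passed the authors' caller.

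Of the 8 members, Control marked 2 with a peak, EZHIP 1 and K27M 4. Over all protein-coding genes the same window held a peak for 1.49% (333 genes) in Control, 1.44% (322 genes) in EZHIP and 1.78% (398 genes) in K27M. The start itself, taken as the annotated 5′ end of the gene, lay in a peak for 2, 1 and 3 members, beside 0.903%, 0.894% and 1.19% of all genes. A peak in all 3 lists was held by 1 member, Dlx6, and by 1.02% of all genes. A peak in the K27M list alone was held by 2 members, Dlx4 and Dlx5, against 0.492% of all genes. Msx1 was the 1 member with a peak in Control and K27M but not in EZHIP, a pattern of 0.224% of genes. The other 4 members shared the absence of a peak with 97.7% of genes. With 8 members, each step of 1 gene moves these shares far, and they are given as counts beside the background and not as a test.

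**Figure D1:**
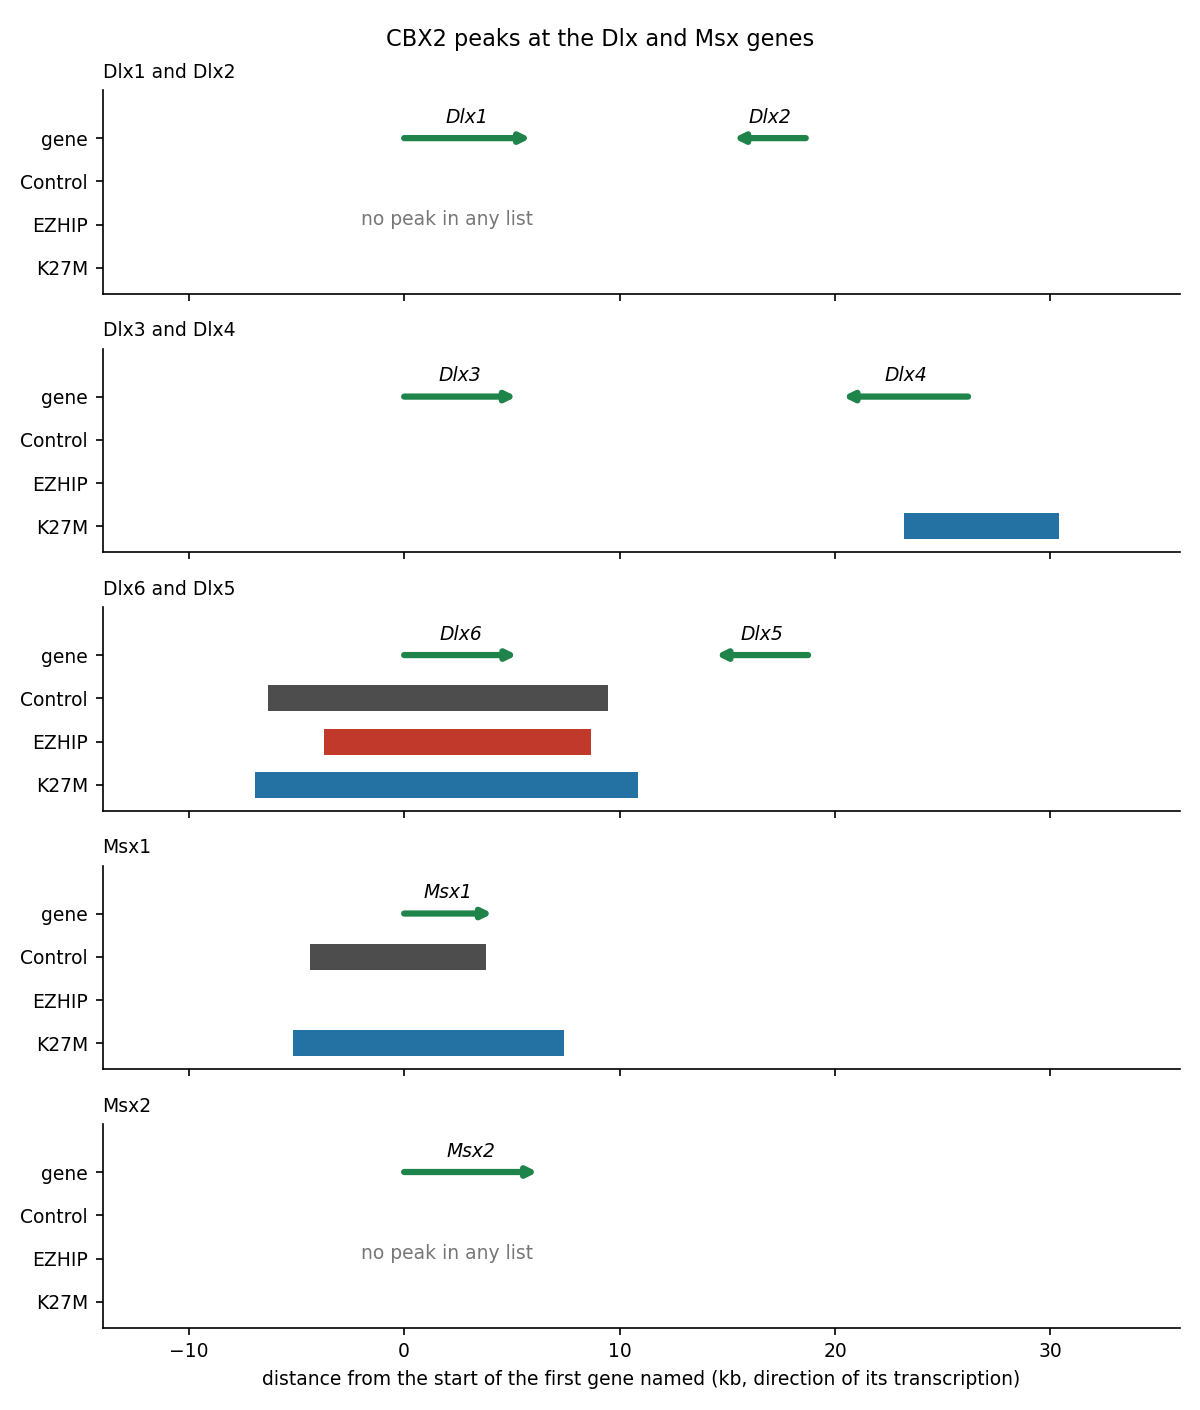
CBX2 peaks (bars) of the Control, EZHIP and K27M lists around the 3 Dlx pairs, Msx1 and Msx2, plotted by distance in kb from the start of the first gene named in each panel and in its direction of transcription, with gene bodies as arrows. The 3 bars at Dlx6 lie inside one another in the order EZHIP, Control, K27M and end before Dlx5, and EZHIP has no bar at Msx1.

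Dlx6, which with Dlx5 sets the identity of the lower jaw and is needed in the limb, was the member with CBX2 in every list. Its Control peak (chr6:6807001-6822800) was 15800 bp wide, its EZHIP peak (chr6:6809601-6822000) 12400 bp and its K27M peak (chr6:6806401-6824200) 17800 bp. The peaks were nested, with EZHIP inside Control and Control inside K27M, and each covered the whole Dlx6 body. Overlapping peaks of the 3 lists were joined into sites, and of the 156 sites with exactly 1 peak in each list 60 (38.5%) were nested in this order. Of the 208 sites with 1 Control and 1 K27M peak, the K27M peak contained the Control peak at 152 (73.1%), so a Control peak inside the K27M peak, as at Dlx6, was the more common arrangement.

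The 2 edges of the Dlx6 peak did not move equally. Upstream of the start the Control peak reached 6333 bp, the EZHIP peak 3733 bp and the K27M peak 6933 bp. Relative to Control, the EZHIP edge lay 2600 bp or 13 bins closer to the start, and the K27M edge 600 bp or 3 bins farther out. On the 3′ side the peaks ran past the end of Dlx6 by 4232 bp in Control and 3432 bp in EZHIP, and K27M passed it by 5632 bp. There the EZHIP edge lay 800 bp (4 bins) short of the Control edge and the K27M edge 1400 bp (7 bins) beyond it. All of these moves exceeded the 200-bp bin in which edges are recorded. The log2 ratio of widths was -0.35 for EZHIP against Control, 0.17 for K27M against Control and 0.52 for K27M against EZHIP.

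Within the Dlx6 window the covered length was 14467 bp (95.0%) in Control and 12400 bp (81.4%) in EZHIP, and K27M filled the window with 15235 bp (100%). As log2 ratios of covered length these were -0.22 for EZHIP and 0.07 for K27M, both against Control. Over the 258 genes with a peak in both lists, the EZHIP to Control ratio had a median of 0.00 and quartiles of -0.26 and 0.09, and 26.7% of genes had a lower ratio than Dlx6. Over the 278 genes with a peak in Control and K27M the median was 0.06 with quartiles of 0.00 and 0.57, and 50.7% were lower than Dlx6. Dlx6 therefore sat between the quartiles of both comparisons. Covered length counts only sequence inside each gene window. The ratio was exactly 0 for 59 of the 258 genes and for 66 of the 278. For K27M the window capped the ratio of Dlx6. The K27M peak filled the window, so 0.07 was the highest value Dlx6 could reach, while its width ratio was 0.17. Its place among genes in that comparison is therefore not a measure of how far the peak grew. The gene whose covered lengths in the 3 lists lay nearest to those of Dlx6 among the 228 genes with a peak in every list was Evx1, a homeobox gene next to the HoxA cluster (chr6:52263492-52268372), with 14172, 12372 and 14881 bp at a distance of 0.05 on the log2 scale.

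The Dlx6 peaks also covered the start of Dlx6os1 (chr6:6770189-6819533, minus strand), the non-coding RNA also known as Evf2, which is transcribed antisense to Dlx6 and helps to regulate the pair in the developing forebrain. They held 25.4% of it in Control (12533 bp), 20.1% in EZHIP (9933 bp) and 26.6% in K27M (13133 bp), of which 349 bp were exon in each list. Of Dlx6 itself, every list covered the 2375 bp of exon, including 1325 bp of UTR, and the 2860 bp of intron. Since the 2 transcripts overlap, CBX2 at the start of one could not be told apart from CBX2 over the other.

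Dlx5, the partner of Dlx6 and a regulator of bone formation as well as of the jaw, had no peak over its body in any list. The K27M peak at Dlx6 ended 3604 bp short of the Dlx5 body and so reached 1396 bp (9.78%) into its window, which is why Dlx5 was counted for K27M. The Control peak ended 5004 bp short, 4 bp outside the window, and the EZHIP peak 5804 bp short, 804 bp outside it. The call at Dlx5 therefore rested on the window edge. A window wider by 1 bin, chosen after the values were seen, added Dlx5 to the Control list, and a window of 10000 bp added it to all 3.

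No peak of any list overlapped both bodies of a Dlx pair. Among 2460 neighbouring convergent protein-coding pairs no farther apart than the widest Dlx gap, 0.366% (9 pairs) were spanned in Control, 0.244% (6 pairs) in EZHIP and 0.203% (5 pairs) in K27M, so 0 of 3 pairs was close to the background. The gap between Dlx6 and Dlx5 was covered in part, by 45.8% in Control (4232 bp), 37.2% in EZHIP (3432 bp) and 61.0% in K27M (5632 bp). The gaps of the other pairs were not covered at all. At the pair of Dlx3 and Dlx4 the K27M peak at Dlx4 ended inside Dlx4 and the body of Dlx3 lay 18.0 kb away from it.

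Msx1, a repressor in the dental mesenchyme and the palate, had a peak in 2 lists. The Control peak (chr5:38212001-38220200) was 8200 bp wide and the K27M peak (chr5:38208401-38221000) 12600 bp, a width ratio of 1.54 or 0.62 on the log2 scale. The K27M peak contained the Control peak. It extended 800 bp (4 bins) farther upstream and 3600 bp (18 bins) farther at the 3′ side, where the Control peak stopped 277 bp short of the end of the gene and the K27M peak ran 3323 bp past it. The covered part of the window rose from 8200 bp (58.2%) to 12422 bp (88.1%), a log2 ratio of 0.60, and 76.3% of the 278 genes compared had a lower ratio. Those ratios too count only sequence inside the windows, and 66 of them were exactly 0. In the EZHIP list the nearest peak lay 3.93 Mb from the Msx1 body, over Nkx3-2, a homeobox gene of the skeleton. Of the 333 genes with a Control peak, 258 (77.5%) also had an EZHIP peak and 278 (83.5%) also had a K27M peak, so Msx1 belonged to the smaller share that had none in EZHIP.

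Dlx4, the partner of Dlx3 and known from branchial arches and placenta, had a peak in the K27M list alone (chr11:95004601-95011800, 7200 bp). It reached 4223 bp upstream of the start and 2976 bp downstream, and covered 51.3% of the gene body and 45.5% of the window. Of Dlx4 it held 2055 bp of exon (782 bp of UTR) and 922 bp of intron. The same peak held the start and 5434 bp (38.8%) of A730090H04Rik, a lincRNA on the opposite strand whose first part overlaps Dlx4, and the peak was not assigned to either. In the Control and EZHIP lists the nearest peak lay 767 kb from Dlx4, over B4galnt2, a glycosyltransferase gene.

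**Figure D2:**
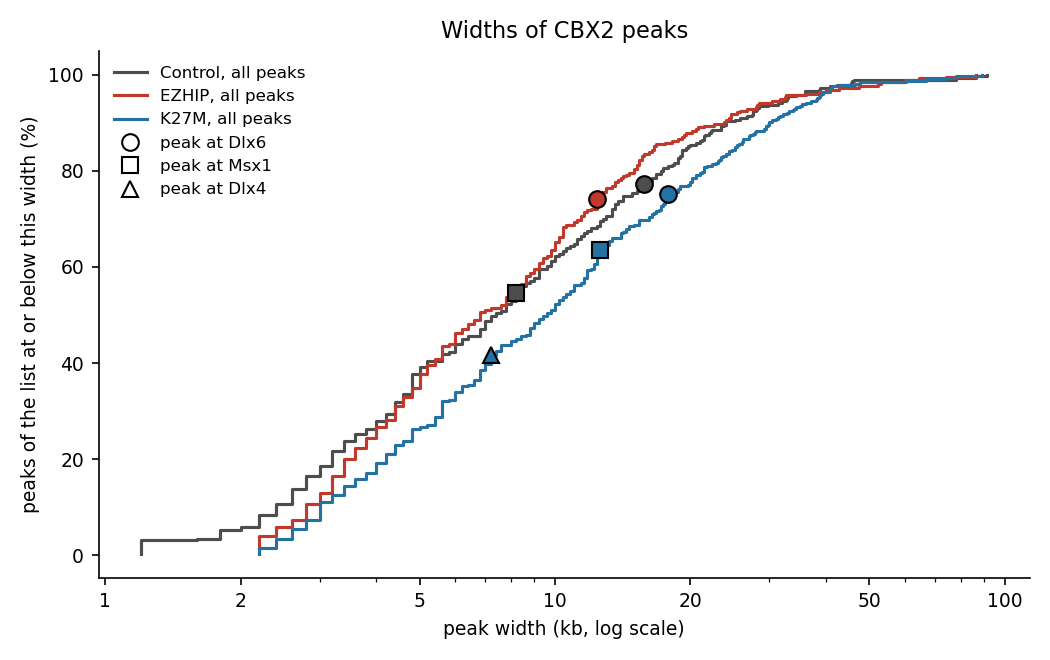
Share of the peaks of each list (y axis, %) at or below a given width (x axis, kb, log scale), with the 6 peaks at Dlx6, Msx1 and Dlx4 marked. The K27M curve lies to the right of the other 2 over most widths, and the markers run from the Dlx4 peak, with 39.8% of its list narrower, to the Control peak at Dlx6, with 76.1% narrower.

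Set against their own lists, the Dlx6 peaks were wide but not extreme. The Control peak ranked 67 of 289 by width, the EZHIP peak 67 of 255 and the K27M peak 82 of 327, so that 76.1%, 72.2% and 74.0% of peaks were narrower. Thus the Dlx6 peak kept nearly the same place in each list while its width in bp ranged from 12400 to 17800. These places come from lists with unlike lowest widths, 1200 bp in Control and 2200 bp in EZHIP and K27M. The Msx1 peaks were near the middle in Control (52.9% narrower) and somewhat above it in K27M (62.1%). The Dlx4 peak was below the middle of the K27M list, with 39.8% narrower. Sequences present in several copies, at which a default bowtie1 run can gather reads, made up between 1.59% and 3.23% of the 32-mers sampled in these 6 peaks.

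The 4 members without a peak in any list were far from any CBX2 peak with 1 exception, Dlx3 in the K27M list. Dlx1 and Dlx2, the pair that acts earliest in forebrain interneurons, lay 1.73 and 1.72 Mb from the nearest Control and EZHIP peaks, which were at Sp9, a zinc-finger gene of limb and interneurons. In the K27M list the nearest peak was at Gad1, the gene of a GABA-synthesising enzyme, at 960 kb from Dlx1 and 975 kb from Dlx2. Dlx3, a regulator of skin, hair and enamel, lay 788 kb from the nearest Control and EZHIP peaks, and 18.0 kb from the K27M peak at Dlx4. Msx2, which acts in skull and hair, lay 2.36 Mb from the nearest peak of every list, which was at Pitx1, the hindlimb homeobox gene.

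CpG islands did not separate the members with a peak from those without. An island was defined here as a run of 500-bp windows with at least 55% G+C and CpG at 0.65 or more of the number expected from their base composition. Within 2500 bp of the start, Dlx2 had 3000 bp of island sequence, more than 99.3% of genes, and Dlx3 had 2300 bp, more than 97.2%, both without a peak. Msx1, also at 2300 bp, had peaks in 2 lists. Dlx4 had 1750 bp, Dlx1 1700 bp and Msx2 1250 bp. Dlx6 and Dlx5 had 1100 bp each, the lowest of the members, and 66.2% of genes had less. Dlx6, with peaks in 3 lists, thus shared the lowest place with Dlx5.

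**Figure D3:**
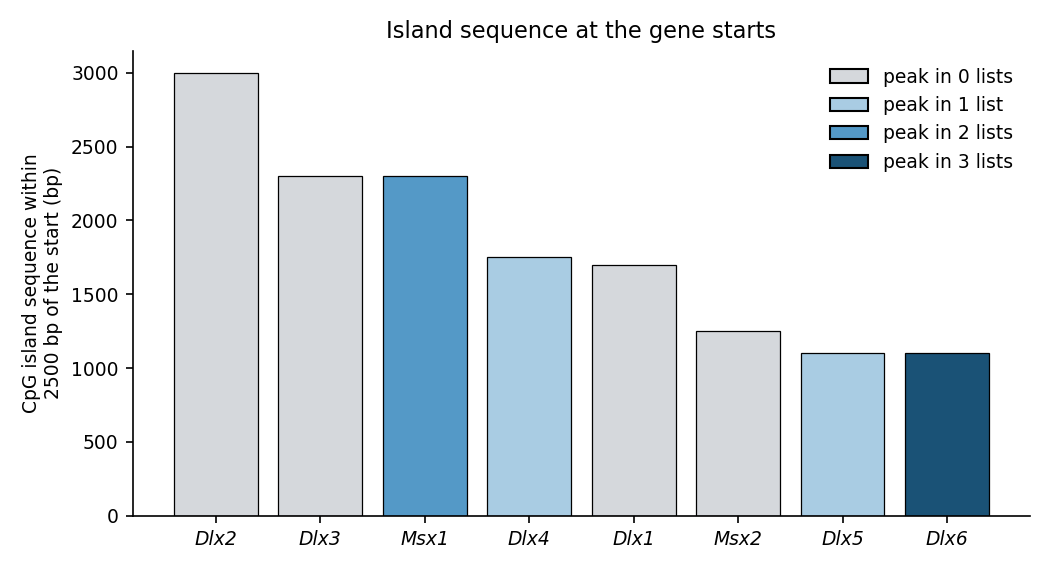
CpG island sequence within 2500 bp of the start (y axis, bp) for each of the 8 members, ordered by that length and coloured by the number of lists with a peak in the gene window. Dlx2 is highest at 3000 bp with no peak, and Dlx6 and Dlx5 are lowest at 1100 bp with peaks in 3 lists and 1 list.

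Over all genes, a peak was more frequent where more island sequence lay near the start. Of the 9977 genes with no island there, 0.521% had a peak in Control, 0.451% in EZHIP and 0.662% in K27M. Of the 7563 genes with at least 1100 bp, the smallest value among the members, the shares were 2.90%, 2.92% and 3.53%. Of the 1907 genes with at least 1725 bp, the median of the members, they were 7.29%, 6.76% and 8.97%. All 8 members had island sequence near the start, as did 12390 of all genes, and the part of this sequence in the counts of 2, 1 and 4 of 8 members was not tested.

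Where a member had its own peak, the island over its start was fully inside it. The island of 1100 bp at the Dlx6 start was covered in all 3 lists, the 1750-bp island at the Msx1 start in Control and K27M, and the 1750-bp island at the Dlx4 start in K27M. The 1150-bp island at the Dlx5 start was touched by no peak, nor were the start islands of Dlx2 (2000 bp), Dlx3 (2300 bp) and Msx2 (1250 bp). At Dlx1 the nearest island (1750 bp) began 800 bp inside the gene and was in no peak either. Msx1 had the most islands in its window, 7 of them with 6100 bp, of which the Control peak touched 5 and the K27M peak all 7. The 2 that K27M added lay past the 3′ end of Msx1, at chr5:38208024-38208973 and chr5:38209424-38209923.

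CpG density was compared inside and next to the peaks. The Dlx6 Control peak had 21.2 CpG per kb (335 CpG), against 13.9 in the stretch of equal length on its outer side and 24.5 in the stretch on the Dlx5 side, which held both Dlx5 islands. Of that stretch on the Dlx5 side only the first 1400 bp lay in a peak, that of the K27M list, and both Dlx5 islands lay outside every peak. The stretch held by all 3 Dlx6 peaks (12400 bp) had 25.1 CpG per kb. The 3400 bp that the Control peak held and the EZHIP peak lacked had 7.06 per kb, with 6.92 per kb in the 2600 bp upstream and 7.5 per kb in the 800 bp on the 3′ side. The 2000 bp that the K27M peak held beyond the Control peak had 26.0 per kb, with 33.3 per kb in the 600 bp upstream and 22.9 per kb in the 1400 bp on the 3′ side. On both sides of Dlx6, then, the stretch absent from EZHIP was CpG-poor and the stretch added in K27M was about as CpG-dense as the common stretch.

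**Figure D4:**
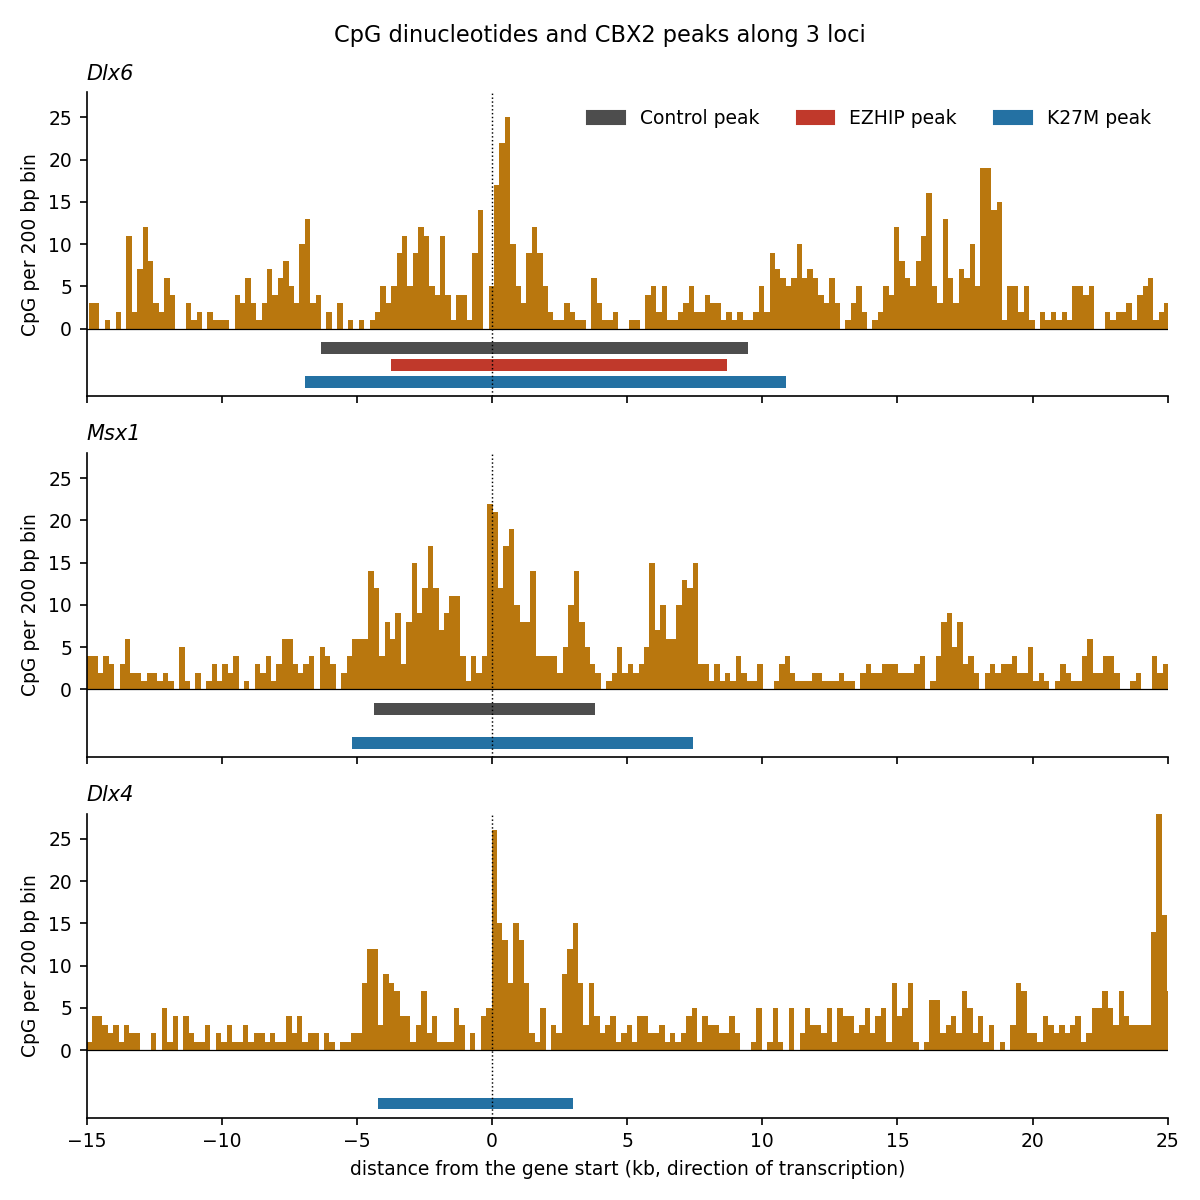
Number of CpG per 200-bp bin (y axis) along the loci of Dlx6, Msx1 and Dlx4 by distance in kb from the gene start in the direction of transcription, with the peaks of each list as bars below. The highest Dlx6 bin (25 CpG) lies just past the start inside all 3 bars, and the CpG-rich bins over Dlx5 at the right of the panel lie outside every bar.

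At Msx1 the density was higher and the contrast with the surroundings larger. The 8200 bp common to both peaks had 44.4 CpG per kb, the 4400 bp added in K27M had 31.1, and the sequence next to the K27M peak had 11.6. What the K27M peak added at Msx1 was thus denser in CpG than the sequence around it. At Dlx6 the stretches next to the K27M peak had 11.8 per kb on the upstream side and 22.0 per kb on the Dlx5 side, so the 1400 bp added on the latter side (22.9 per kb) hardly differed from what lay beyond them. The Dlx4 peak had 28.6 CpG per kb, against 14.0 in the sequence next to it. Over whole windows Msx1 was the highest of the members at 37.3 CpG per kb and Dlx6 the lowest at 22.2, with Dlx2 at 35.6, Dlx1 at 27.2, Msx2 at 27, Dlx5 at 25.3, Dlx3 at 24.4 and Dlx4 at 22.7.

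The genes that act with Dlx and Msx were counted in the same way, from lists of upstream signals, partners and relatives, in which Sp9 and Barx1 each appear in 2 lists. Of 12 signals and antagonists that induce or limit Dlx and Msx expression, among them Bmp2, Bmp4, Fgf8 and Edn1, none had a Control peak. Bmp5, a BMP ligand, had 3000 bp covered in EZHIP alone, and Shh, the hedgehog morphogen of limb and neural tube, had 2200 bp covered in K27M alone. Each of these lists thus held 1 of the 12 genes (8.33%), beside 1.44% of all genes in EZHIP and 1.78% in K27M, and no reading is made from a single gene.

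Transcription factors of limb, jaw and tooth had a peak for 7 of 18 genes in Control, the same 7 in EZHIP and 9 in K27M (38.9%, 38.9% and 50%). Tfap2a, a neural crest factor, was among those with the largest covered lengths in Control, with 19949 bp in Control, 25192 in EZHIP and 28149 in K27M, so Control was lowest there. The smallest were at Tbx2, with 3200, 4400 and 3200 bp, and Barx1, a molar-field gene, with 9034, 1834 and 13510 bp. Sp6, an enamel gene, and Hand2, which Dlx5 and Dlx6 activate in the jaw, had peaks in K27M alone, covering 4800 and 5221 bp.

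Forebrain interneuron genes, many of them downstream of Dlx1 and Dlx2, had a peak for 7 of 13 in Control and EZHIP (53.8%) and 11 in K27M (84.6%). The 7 were the same in each list. Isl1 had the most covered length, with 20723, 20800 and 21323 bp in Control, EZHIP and K27M. These values hardly differed, but they count only sequence inside the window and do not give the widths of the peaks. Gad2, which makes GABA, had the least in Control (2600 bp) and 6000 and 10000 bp in EZHIP and K27M. Gsx2, which acts upstream of Dlx genes, had 6318, 2400 and 11118 bp. The 4 genes with a peak in K27M alone included Gsx1 (7600 bp), which also acts upstream of Dlx genes, Gad1 (6800 bp) and the neuropeptide gene Npy (6800 bp). Dlx1 and Dlx2 thus lacked a peak while most of the genes named for their pathway had one in K27M.

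**Figure D5:**
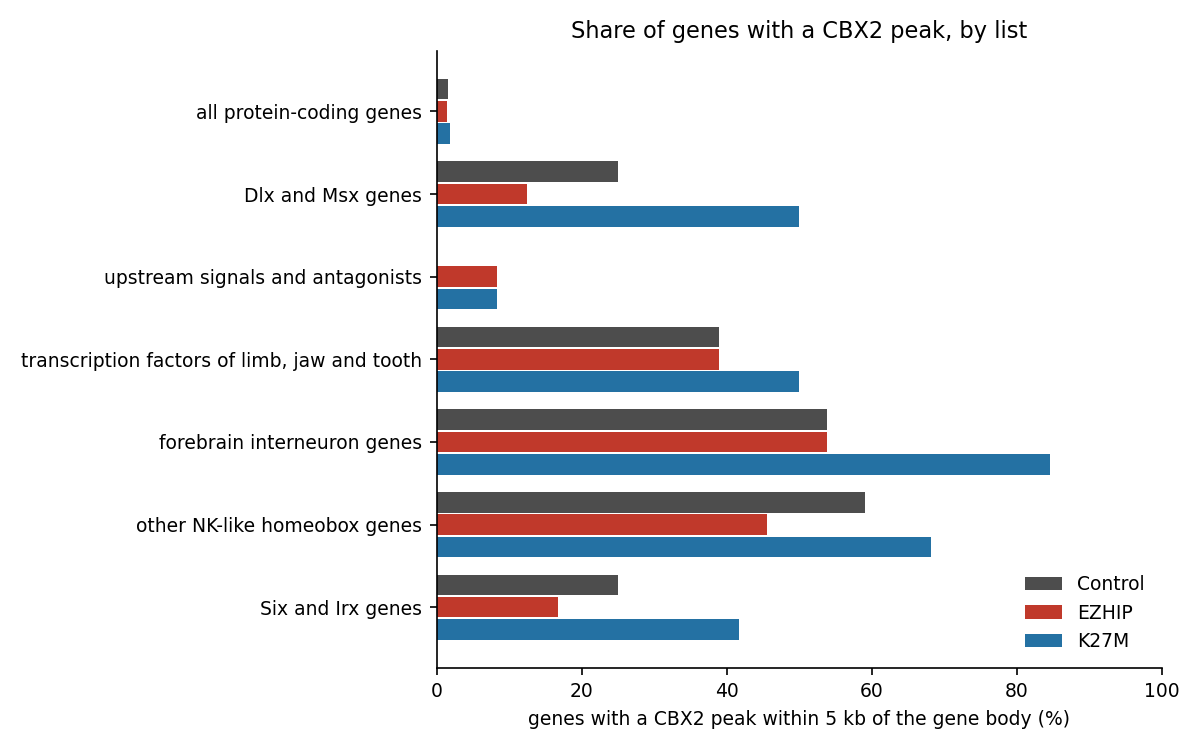
Share of genes (x axis, %, from 0) with a CBX2 peak within 5 kb of the gene body in the Control, EZHIP and K27M lists, for all protein-coding genes, the 8 Dlx and Msx genes and the 5 related lists. The K27M bar is the longest, or as long as any other, for every list of genes, and forebrain interneuron genes reach 84.6% in K27M.

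The closest homeobox relatives were those of the NK-like class, to which Msx and Dlx belong in most classifications. Of 22 such genes other than the members, 13 had a peak in Control (59.1%), 10 in EZHIP (45.5%) and 15 in K27M (68.2%), beside 2, 1 and 4 of the 8 members. Msx3, the remaining Msx gene, had none in any list. The pattern of Msx1, present in Control and K27M but not in EZHIP, was shared by 3 of them, Barx2, Emx1 and En1. En1, a limb and midbrain gene, had 16879 bp covered in both Control and K27M and none in EZHIP, and Emx1, a cortical gene, had 2200 bp in Control and 11800 bp in K27M. Barhl1 (8800 bp) and Dbx2 (3600 bp) shared the K27M-only pattern of Dlx4. Vax2, a gene of the ventral eye, had 17543, 9800 and 17943 bp, with EZHIP lowest as at Dlx6, and Tlx2 had 2400, 3200 and 3000 bp.

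The Irx genes and the family of Six3, homeobox genes of other classes, had a peak for 3, 2 and 5 of 12 genes (25%, 16.7% and 41.7%). Six3, a forebrain and eye gene, had 18253, 3853 and 19853 bp, and Six6, its neighbour in function, 13469, 11400 and 12669 bp. Irx5 had 12000 bp in Control and 8000 bp in K27M with none in EZHIP, and so shared the pattern of Msx1 with a narrower K27M value. Irx4 (11800 bp) and Irx3 (2753 bp) had a peak in K27M alone. Across these 5 lists a peak in K27M alone occurred for 1 of 12, 2 of 18, 4 of 13, 2 of 22 and 2 of 12 genes, beside 0.492% of all genes. A peak in Control alone occurred for 0 in each. Its share over all genes is not given here, so no contrast is drawn from these zeros. Since the K27M list was longest and its peaks widest, and its depth is unknown, the list's size and these counts cannot be told apart.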

How the data were processed

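CBX2 was measured by ChIP-Seq in MEFs (Control, EZHIP and K27M, 1 library each). Per the methods, the authors aligned reads to mm9 and a spike-in genome with bowtie1 at default settings (Bowtie 1.0.0 in the submitters' processing notes) and called broad peaks with MOSAiCS-HMM. Whether an input or scaling entered the calls is not given in the sources used here. The deposited files held only the chromosome, start and end of each peak, with no score. Every peak was a run of whole 200-bp bins, and positions are given 1-based. Depth is unknown, so no interval could be given.

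Genes and sequence came from GENCODE vM1 on NCBIM37, the assembly of mm9. Peaks were joined to gene windows with Python 3.11.15, numpy 2.4.6 and pysam 0.24.0, and plots were drawn with matplotlib 3.10.9. Islands were scanned in steps of 50 bp. With 1 library per group no test was made, and counts stand beside the same counts over all protein-coding genes. The overlap, joining and island steps were tested on simulated data with known answers.

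The members and gene lists were chosen with earlier results of these data known. Named were all members, genes overlapping their peaks, the gene most alike to Dlx6 in covered length, and from each list genes with a peak in exactly 1 list and the 2 with the largest and smallest covered lengths in Control among those with a peak. Others were named after their values were seen: Barx2, genes without values, Msx3 and the genes at the nearest peaks. Tfap2a was matched through an older symbol, and overlapping records of single genes such as Gsx2 and Runx2 were joined. Some items that the rule names are not reported here. Alternatives were other windows, a minimum width, equal list sizes, joined peaks, a stricter overlap, the longest transcript and relaxed island criteria.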

Additional observations from a re-analysis of the deposited data

How the results depend on the processing

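No paired analysis was possible because 1 library stood for each group, and for the same reason no library could be left out. Of 129 alternative values, 111 did not count as moved, 18 moved, 6 of them ratios of Dlx6 or Msx1 alone, and 0 changed sign. Only the log2 ratios could change sign, and the 111 include values that their setting could not change. A count could change within a set ratio and still stay among the 111. Members with a K27M peak, 4 in the main setting, were 3 with the gene body alone and 5 at 20000 bp, and neither counted as moved. A log2 ratio counted as moved beyond the change that 1 bin at each edge would make. Edges are fixed to bins, so no other edge setting was run. No setting made a peak span a Dlx pair, but spanning was read on gene bodies, so wider windows could not change it. Only joining could have added a span. A minimum width of 5000 bp and the 255 widest peaks of each list changed the presence of a peak at no member. The narrowest member peak, at Dlx4 in K27M, was 7200 bp wide and ranked 192. Neither setting could therefore remove a member peak, and neither is a check of stability. The longest transcript changed the presence of a peak at no member. Joining peaks closer than 10000 bp also moved no value, but it joined nothing at a member, so it is no check of stability there.

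The median log2 covered length over members, against Control, was -0.22 for EZHIP, from Dlx6 alone, and 0.34 for K27M, from 2 genes. With the gene body alone these medians were 0.00 and 0.05. The Dlx6 body was covered in full in all 3 lists, and the Msx1 body by 93.2% in Control and 100% in K27M. Dlx5 had no K27M peak in that setting, but it was in neither main median. With 10000 or 20000 bp Dlx5 gained a peak in all lists, so EZHIP had 2 members, and at 20000 bp the medians, now with Dlx5, were -0.31 and 0.17. At 20000 bp Dlx3 also gained a K27M peak. One bin more on each side, chosen after seeing the data, gave 0.62 for K27M because Dlx5, barely reached by the Control peak, entered the median, while Dlx6 stood at 0.09 and Msx1 at 0.62. Where a peak had to cover at least 50% of the gene body, 171, 155 and 192 of all genes had one in Control, EZHIP and K27M, and Dlx5 was lost in K27M. Islands called anew inside each member peak numbered 4, 1 and 8 in the 3 lists, and relaxed criteria gave 7 in Control, 3 in EZHIP and 11 in K27M.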
